A study of Mus musculus with 10 samples.

Results

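The Notch pathway genes described here are 10 genes, the receptors *Notch1*, *Notch2*, *Notch3* and *Notch4*, the ligands *Jag1*, *Jag2*, *Dll1* and *Dll4*, and the target genes *Hes1* and *Hey1*. They were chosen by name and found through their Ensembl identifiers among the 21792 genes of the deposited tables, and all 10 were present in each mouse and passed the filter on low values. The data are RNA-seq of the kidney cortex of 10 wild-type male C57BL/6 mice, aged 8 weeks at the start, taken at day 28. The 6 AAN mice (aristolochic acid nephropathy, a toxic injury of the tubules that goes on to fibrosis) were given aristolochic acid once, as an intraperitoneal dose of 5 mg/kg in PBS, and the 4 sham mice received PBS. Each library is 1 mouse, and none was pooled. The samples are whole cortex, so fewer cells of a type and less RNA per cell cannot be told apart. The comparison asks which Notch genes differed in level between injured and control cortex.

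Notch receptors are membrane proteins that are activated by ligands of the Jagged and Delta families on a neighbouring cell. Ligand binding lets an ADAM protease and then the γ-secretase complex cut the receptor, and the freed intracellular domain joins the DNA-binding protein RBPJ and a Mastermind coactivator to switch on target genes such as those of the Hes and Hey families. In the kidney the pathway is known for its part in forming the proximal nephron, for its use by vessels in the adult organ, and for its activity in injured tubules and glomeruli.

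The values are FPKM, the fragments of a gene per kilobase of its model and per M (1e6) fragments, so levels of genes of unequal length can be set beside each other. The depth, recovered from the steps between low values, was 15.85 to 17.51 M fragments in the sham mice and 13.39 to 16.47 M in the AAN mice. Mitochondrial genes held 39.5% to 61.4% of the FPKM total in the sham mice and 21.4% to 55.0% in the AAN mice. Over the 17129 genes tested, the median log2 fold change (AAN over sham) was 0.75 and 82.3% of the genes were above 0. The changes of the 10 genes are therefore also given relative to this median. Rescaling the mice by the median of ratios moved the median of all genes to 0.06, and quantile normalization moved it to -0.13.

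The sham mouse B607 and the AAN mouse B614 stood apart from the rest before any comparison. The median log2 level of 1461 genes with models of at least 6000 bases minus that of 2225 genes with models of 1000 to 2000 bases was -0.84 in B607 and -1.71 to -1.62 in the other sham mice. The same difference was -0.81 in B614, while the remaining AAN mice lay between -1.60 and -1.38. Apart from B607 and B614, every AAN mouse thus lay above every sham mouse in this difference. The receptor genes have long models, with longest transcripts of 6591 to 10500 bases, and B607 and B614 were the highest mouse of their group for *Notch1*, *Notch2* and *Notch4*. Results that rest on these mice are given with and without them.

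In the AAN mice 5 of the 10 genes rose, namely *Notch1*, *Notch2*, *Notch3*, *Jag1* and *Hes1*, and none fell. A gene was called where limma gave it an adjusted p of 0.05 or less (Benjamini-Hochberg over all genes tested) together with a change of 2-fold or more, and by this rule 35.8% of all genes tested rose and 3.43% fell. At an unadjusted p under 0.05, 8 of the 10 genes were higher and 0 lower. The share of all genes at this unadjusted limit was not taken. At an adjusted p of 0.05 or less with no fold limit, 9482 of the 17129 genes tested were higher and 1027 lower. A further 3 genes, *Jag2*, *Dll1* and *Dll4*, passed the adjusted p but not the 2-fold limit, and *Notch4* and *Hey1* passed neither. The levels of 7 of the 10 genes did not overlap between the groups, against 43.6% of all genes tested. The median log2 fold change of the 10 genes was 1.0, beside 0.75 for all genes tested. After rescaling by the median of ratios or by quantile normalization, *Jag1* was the 1 gene of the 10 past both limits.

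**Figure D1:**
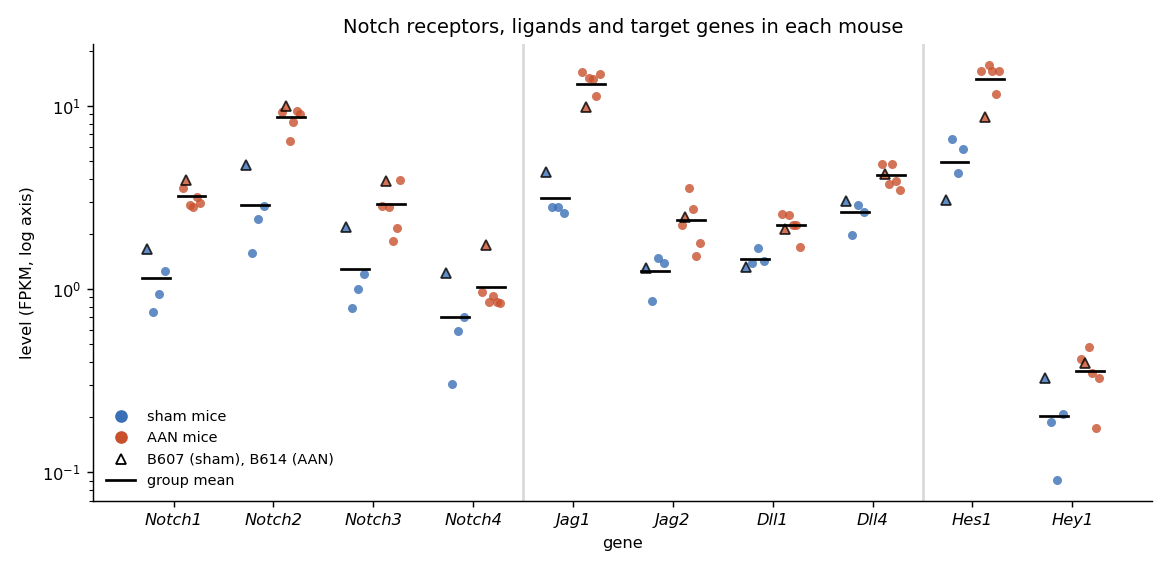
Level (FPKM, log axis) of the 10 Notch pathway genes in each of the 4 sham and 6 AAN mice. Points are mice, triangles are the sham mouse B607 and the AAN mouse B614, and bars are group means. In the AAN mice *Jag1*, *Hes1*, *Notch1* and *Notch2* lie above every sham mouse, while *Notch3*, *Notch4* and *Hey1* overlap.

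In the sham cortex *Hes1* had the highest mean level, 4.93 ± 1.57 FPKM (SD, n = 4), and *Hey1* the lowest, 0.204 ± 0.0977 FPKM. Between them the order was *Jag1*, *Notch2*, *Dll4*, *Dll1*, *Notch3*, *Jag2*, *Notch1* and *Notch4*. The neighbours *Jag1*, *Notch2* and *Dll4* differed by less than their spread between mice, and so did *Dll1*, *Notch3*, *Jag2* and *Notch1*. In the AAN cortex *Hes1*, at 14.0 ± 3.11 FPKM (SD, n = 6), and *Jag1*, at 13.2 ± 2.16 FPKM, led the order and differed by less than their spread. *Notch2* and *Dll4* followed, each set off from its neighbours by more than the spread. *Notch1*, *Notch3*, *Jag2* and *Dll1* came next with neighbouring means within the spread, and *Notch4* and *Hey1* were again the lowest.

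Of the receptors, *Notch2* had the highest level in both groups. *Notch2*, the receptor known for its role in nephron formation, lies on chromosome 3 from 98013527 to 98150361 (GRCm38, plus strand, ENSMUSG00000027878). It was 4.75, 1.57, 2.40 and 2.83 FPKM in the sham mice B607, B634, B636 and H249. In the AAN mice it ranged from 6.44 to 9.94 FPKM with a median of 9.17. Every AAN mouse lay above every sham mouse, and the highest mouse of each group was B607 and B614. The log2 fold change was 1.65 ± 0.26 (SE, adjusted p = 0.000183), which is 0.91 above the median of all genes, at percentile 81.5 of all genes tested. It was 0.91 (adjusted p = 0.00216) after the median of ratios and 0.85 (adjusted p = 0.00198) after quantile normalization, both under the 2-fold limit.

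*Notch1* lies on chromosome 2 from 26457903 to 26516663 (minus strand, ENSMUSG00000026923) and encodes a receptor that endothelium and many epithelia use. Its levels in the sham mice were 1.65 FPKM in B607, 0.749 in B634, 0.94 in B636 and 1.26 in H249. The AAN mice ranged from 2.82 to 3.94 FPKM with a median of 3.08. Again the groups did not overlap, and B607 and B614 were the highest of their groups. The log2 fold change was 1.46 ± 0.21 (SE, adjusted p = 0.000113), or 0.71 above the median of all genes. It was 0.74 after the median of ratios and 0.43 after quantile normalization.

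*Notch3*, the receptor of vascular smooth muscle cells and pericytes, lies on chromosome 17 from 32120820 to 32166852 (minus strand, ENSMUSG00000038146). The sham mice B607, B634, B636 and H249 had 2.17, 0.784, 1.0 and 1.21 FPKM, and the AAN mice had 1.83 to 3.92 FPKM with a median of 2.82. Only B607 of the sham mice reached into the AAN range, where 4 of 6 mice lay above it. The log2 fold change of 1.15 ± 0.29 (SE, adjusted p = 0.00499) was 0.40 above the median of all genes. With the sham mouse B634 left out it was 0.96, short of 2-fold, and it was 0.43 and 0.13 after the median of ratios and quantile normalization, where the adjusted p was 0.18 and 0.713.

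*Notch4* encodes a receptor found mainly in endothelium and lies on chromosome 17 from 34564268 to 34588503 (plus strand, ENSMUSG00000015468). It was 1.23, 0.305, 0.588 and 0.706 FPKM in the sham mice B607, B634, B636 and H249. The AAN mice had 0.844 to 1.74 FPKM with a median of 0.885. B614 held the highest AAN value, and of the AAN mice it alone exceeded B607. The log2 fold change of 0.56 ± 0.32 (SE) did not pass the test (adjusted p = 0.142) and was -0.19 relative to the median of all genes. It was -0.10 after the median of ratios and -0.64 after quantile normalization. The change was 0.85 (adjusted p = 0.0273) without B607 and 0.27 (adjusted p = 0.44) without B634. It was 0.69 (adjusted p = 0.0274) without B607 and B614, where the means were 0.533 ± 0.206 FPKM (SD, n = 3) and 0.885 ± 0.0545 FPKM (SD, n = 5), and the groups no longer overlapped.

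Among the ligands, *Jag1* had the highest log2 fold change of the 10 genes. It encodes Jagged1 and lies on chromosome 2 from 137081456 to 137116644 (minus strand, ENSMUSG00000027276). The sham mice B607, B634, B636 and H249 had 4.34, 2.80, 2.80 and 2.59 FPKM, and the AAN mice had 9.85 to 15.3 FPKM with a median of 14.1. The lowest AAN mouse, B614, was still above the highest sham mouse, B607. The log2 fold change was 2.06 ± 0.19 (SE, adjusted p = 2.95e-06), or 1.31 above the median of all genes, at percentile 86.7 of all genes tested. It stayed past both limits under all 19 alternatives run for it, where it ranged from 1.31 (median of ratios) to 2.30 (B607 and B614 left out).

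Since RBPJ binds DNA at sites with the core TGGGAA, the 250 bases before each start site in the RefSeq promoters (GRCm38.p6) were searched for these letters on both strands. Of 32851 such stretches 21.6% held the letters on either strand. Of the 10 genes, 8 had a promoter in the table, all but *Hes1* and *Hey1*, and none of their 9 promoters held the letters. The upstream stretch of *Jag1*, the gene with the highest change, is shown up to its annotated first exon, at chr2:137116645-137116770 on the minus strand.
Jag1: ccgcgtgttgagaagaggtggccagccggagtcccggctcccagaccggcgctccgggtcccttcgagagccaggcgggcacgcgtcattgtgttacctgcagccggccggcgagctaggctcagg

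*Jag2*, *Dll1* and *Dll4*, which encode the ligands Jagged2, Delta-like 1 and Delta-like 4, differed by less than 2-fold. *Dll4*, an endothelial ligand on chromosome 2 from 119325784 to 119335962 (plus strand, ENSMUSG00000027314), was 3.03, 1.98, 2.87 and 2.65 FPKM in the sham mice B607, B634, B636 and H249 and 3.46 to 4.83 FPKM (median 4.08) in the AAN mice. *Dll1*, on chromosome 17 from 15367354 to 15376872 (minus strand, ENSMUSG00000014773), was 1.32, 1.39, 1.67 and 1.43 FPKM in the same sham mice and 1.69 to 2.56 FPKM (median 2.24) in the AAN mice. *Jag2*, on chromosome 12 from 112907819 to 112929776 (minus strand, ENSMUSG00000002799), was 1.30, 0.856, 1.47 and 1.38 FPKM against 1.52 to 3.58 FPKM (median 2.35). None of the 3 genes overlapped between the groups, but the gap was narrow for *Dll1* and *Jag2*. The log2 fold changes were 0.65 ± 0.17 for *Dll4* (SE, adjusted p = 0.00582), 0.58 ± 0.17 for *Dll1* (adjusted p = 0.00938) and 0.85 ± 0.25 for *Jag2* (adjusted p = 0.0101). Relative to the median of all genes these are -0.10, -0.17 and 0.11. After the median of ratios they were -0.09, -0.14 and 0.14, and after quantile normalization -0.22, -0.46 and -0.19, so their sign depends on the scaling.

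Of the target genes, *Hes1*, which encodes a transcriptional repressor and lies on chromosome 16 from 30064384 to 30067796 (plus strand, ENSMUSG00000022528), was 3.06, 6.60, 4.29 and 5.79 FPKM in the sham mice B607, B634, B636 and H249. In the AAN mice it was 8.73 to 16.8 FPKM with a median of 15.6. The groups did not overlap. Unlike the receptors, *Hes1* was lowest in B607 and B614 within their groups. The log2 fold change was 1.51 ± 0.25 (SE, adjusted p = 0.000276), or 0.76 above the median of all genes. It was 0.75 after the median of ratios (adjusted p = 0.0511) and 0.84 after quantile normalization (adjusted p = 0.0379).

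*Hey1*, which encodes a related repressor prominent in endothelium, lies on chromosome 3 from 8663359 to 8667256 (minus strand, ENSMUSG00000040289). It was 0.328, 0.188, 0.0906 and 0.207 FPKM in the sham mice B607, B634, B636 and H249 and 0.175 to 0.481 FPKM (median 0.372) in the AAN mice. The groups overlapped, also without B607 and B614, and the log2 fold change of 0.61 ± 0.28 (SE) did not pass the test (adjusted p = 0.0797). This is -0.14 relative to the median of all genes. The gene rests on few fragments, with a mean upper limit of 11 in the sham mice and 18 in the AAN mice. The change depended on single mice. It was 0.80 (adjusted p = 0.0356) without B607, 0.75 (adjusted p = 0.0321) without the AAN mouse B642, 0.77 (adjusted p = 0.0474) without B607 and B614, and 0.41 (adjusted p = 0.251) without B636. After the median of ratios it was 0.08 and after quantile normalization -0.67.

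**Figure D2:**
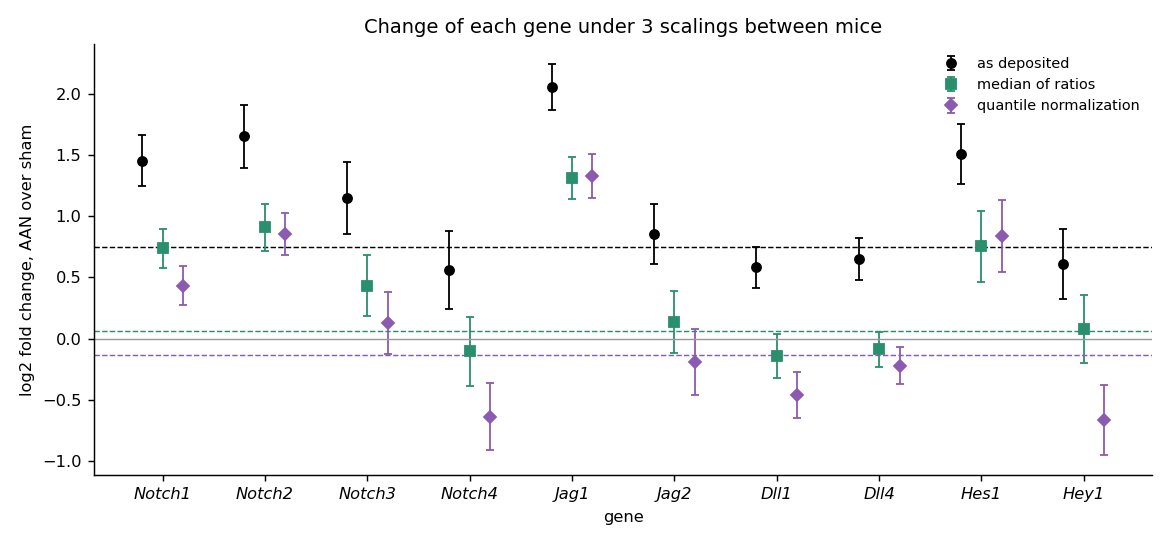
Log2 fold change (AAN over sham) of the 10 genes with the values as deposited, after the median of ratios and after quantile normalization. Points are limma estimates with SE, and dashed lines are the medians of all genes tested, 0.75, 0.06 and -0.13. *Jag1* stays above 1 under all 3, and *Notch4*, *Dll1* and *Dll4* fall below 0 under both rescalings.

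The make-up of the ligand transcripts differed between the groups. The summed level of the 4 ligands was 8.46 ± 1.25 FPKM (SD, n = 4) in the sham mice and 22.0 ± 2.69 FPKM (SD, n = 6) in the AAN mice. *Jag1* held 36.8% ± 5.76 of this sum in the sham mice and 59.9% ± 4.99 in the AAN mice, and the groups did not overlap (highest sham 43.4%, lowest AAN 52.7%). The share of *Dll4* was 31.0% ± 2.19 and 19.1% ± 2.81, that of *Dll1* 17.4% ± 2.91 and 10.2% ± 1.44, and that of *Jag2* 14.7% ± 2.52 and 10.8% ± 2.85. Among the receptors the summed level was 6.04 ± 2.72 and 15.9 ± 2.34 FPKM. *Notch2* held 47.5% ± 1.2 in the sham mice and 55.0% ± 4.36 in the AAN mice, and *Notch4* held 11.3% ± 1.60 and 6.40% ± 1.39.

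**Figure D3:**
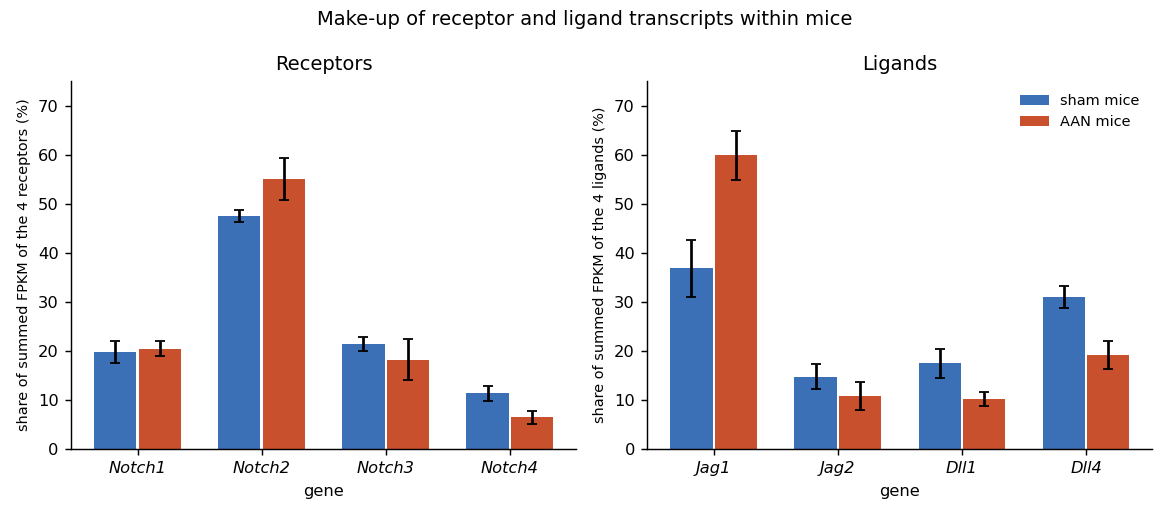
Share (%) of each gene in the summed FPKM of the 4 receptors (left) and of the 4 ligands (right), as group mean with SD over 4 sham and 6 AAN mice. *Jag1* goes from 36.8% to 59.9% of the ligand transcripts. The mean shares of the other ligands are lower in the AAN mice, although their FPKM levels are higher there. The share of *Jag2* overlaps between the groups (12.2% to 17.1% in the sham mice, 8.0% to 14.9% in the AAN mice).

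Whether the genes of a role changed unequally was tested on the difference of their log2 levels within each mouse. Apart from the pseudocount this difference does not depend on the scaling between mice. It is not free of shifts between long and short gene models. The test was exact and two-sided, by permutation of all 210 ways to divide 10 mice into 4 and 6 (smallest p 0.00476), with Benjamini-Hochberg adjustment over 13 pairs. *Jag1* changed more than each other ligand. The difference of the log2 changes was 1.48 ± 0.24 against *Dll1* (SE, exact adjusted p = 0.0155), 1.41 ± 0.20 against *Dll4* (exact adjusted p = 0.0155) and 1.21 ± 0.29 against *Jag2* (exact adjusted p = 0.0248). All 6 AAN mice lay above every sham mouse in these differences. The exact adjusted p of *Jag1* against *Jag2* was 0.0619 without the sham mouse B636 and the same without H249.

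*Notch1* and *Notch2* changed more than *Notch4*, by 0.89 ± 0.17 and 1.09 ± 0.14 on the log2 scale (SE, exact adjusted p = 0.0155 for both), again with no overlap between the groups. The other 8 pairs did not pass. Among these, *Notch3* minus *Notch4* was 0.59 ± 0.20 (SE, exact adjusted p = 0.0619), *Notch2* minus *Notch3* was 0.51 ± 0.18 (exact adjusted p = 0.0696) and *Dll1* minus *Dll4* was -0.07 ± 0.16 (exact adjusted p = 0.643). *Hes1* minus *Hey1* was 0.90 ± 0.43 (SE, exact adjusted p = 0.0619) and passed without the AAN mouse B614 (1.06, exact adjusted p = 0.0206). Without the sham mouse B607 it was 0.51 (exact adjusted p = 0.172), and without both mice 0.67 (exact adjusted p = 0.0387). In every pair that passed, the gene that rose more has the longer longest transcript. *Jag1* has 5612 bases, beside 5106 (*Jag2*), 3747 (*Dll4*) and 3581 (*Dll1*). *Notch1* and *Notch2* have 9488 and 10500, beside 6591 for *Notch4*. In every receptor and ligand pair that did not pass, the longer gene also had the higher estimate (*Notch3* has 8016 bases). Only in *Hes1* minus *Hey1* did the shorter gene, *Hes1*, have the higher change. The part of gene length in these differences was not tested.

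Across the mice the receptors varied together within the groups. Over the 10 mice, after subtraction of the group means, Pearson r of the 6 receptor pairs was 0.72 to 0.93 (Spearman rho 0.50 to 0.92), and without B607 and B614 it was 0.37 to 0.85. The receptors and *Hes1* ran opposite ways, with r of -0.83 to -0.59, and without these mice r was -0.54 to 0.10. The level of long relative to short gene models, described above for B607 and B614, had r of 0.73 to 0.89 with the receptors and -0.81 with *Hes1*. Without B607 and B614 these became 0.34 to 0.77 and 0.28, so for the receptors other than *Notch3* (0.77) and for *Hes1* most of the relation rests on 1 mouse per group. For *Jag1* r was 0.24 over 10 mice and 0.77 over the other 8. These are descriptions. All genes of a mouse share its depth and RNA composition, which differed between the mice.

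**Figure D4:**
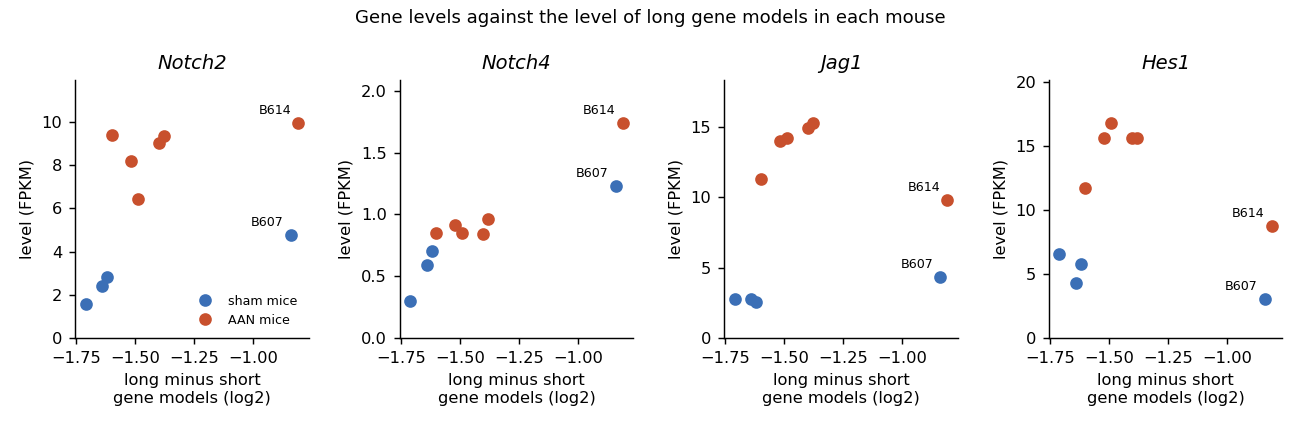
Level (FPKM) of *Notch2*, *Notch4*, *Jag1* and *Hes1* against the median log2 level of long minus short gene models in each mouse. Points are mice. B607 and B614, at -0.84 and -0.81, are the highest of their groups for *Notch2* and *Notch4* and the lowest for *Hes1*, while the sham and AAN mice stay apart for *Notch2*, *Jag1* and *Hes1*.

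The genes whose deviations from the group means were most like those of each gene were taken from 12240 genes whose mean was 1 FPKM or more (12241 for *Notch4* and *Hey1*). For *Notch2* they were *Akap13* (r = 0.992) and *Eif2ak3* (r = 0.991), for *Notch1* *Cul7* (0.978), for *Notch3* *Scd2* (0.978) and *Pdzrn3* (0.976), and for *Notch4* *Usp24* (0.985) and *Glb1l* (0.977). Among the ligands they were *Ankhd1* (0.938) and *Il17rb* (0.933) for *Jag1*, *Hspb7* (0.927) and *Zdhhc17* (0.919) for *Jag2*, *AA986860* (0.867) and *Gm20518* (0.855) for *Dll1*, and *St6galnac2* (0.95) and *Usp3* (0.936) for *Dll4*. *Hes1* was most like *Slc27a3* (0.96) and *Glmn* (0.944), and *Hey1* was like *Fam124a* (0.914). Each r is over 10 mice. As the highest of so many, each r is raised by the selection itself, and none was tested. Without B607 and B614, r stayed at 0.82 or above for all of these but *Il17rb* (0.65).

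Several of these genes are known to mark or to be used by particular cell types, whose markers are set beside them. Of 10 endothelial markers 0 passed both limits in limma and 5 were higher at an unadjusted p under 0.05 (median log2 fold change 0.39, summed level 86.5 to 132 FPKM in the sham mice and 153 to 177 FPKM in the AAN mice, no marker at 0). Of 8 mural cell markers 6 rose (46.7 to 70.7 FPKM and 100 to 301 FPKM). *Myh11* and *Kcnj8* did not pass, with log2 fold changes of -0.27 and -0.03. Among those that rose, *Acta2* encodes α-SMA and *Pdgfrb* PDGFRβ, which the paper used for fibrosis and for fibroblasts. The list is thus not particular to mural cells, and the part of these cells in the level of *Notch3* was not tested. *Notch1* minus the mean log2 level of the endothelial markers was 1.05 ± 0.11 higher in the AAN mice (SE, exact permutation test, adjusted p = 0.0238 over 5 comparisons), and all 6 AAN mice lay above every sham mouse. Without any 1 sham mouse its exact adjusted p was 0.0595, with the unadjusted p at the smallest value that 84 splits can give. The median log2 fold change of all genes tested, 0.75, is above the 0.39 of these markers, so a gene at that median also rose against them. *Notch1* also has a longer longest transcript (9488 bases) than any of the markers (1865 to 6895 bases). The part of either in this difference was not tested. Against the same markers the difference was 0.25 ± 0.10 for *Dll4* (exact adjusted p = 0.0952), 0.16 ± 0.25 for *Notch4* and 0.21 ± 0.24 for *Hey1* (exact adjusted p = 0.571 for both). *Notch3* minus the mural cell markers was -0.03 ± 0.36 (SE, exact adjusted p = 0.924).

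Markers of other cell types are given for the make-up of the cortex. All 7 fibroblast, 7 leukocyte, 6 macrophage and 7 injured tubule markers rose, with median log2 fold changes of 2.79, 4.42, 4.58 and 5.49. The summed level of the leukocyte markers was 7.24 to 13.2 FPKM in the sham mice and 139 to 444 FPKM in the AAN mice, and that of the fibroblast markers was 13 to 18.4 and 107 to 247 FPKM. Of 8 proximal tubule markers 5 fell, and their sum was 1750 to 3940 FPKM in the sham mice and 540 to 2060 FPKM in the AAN mice. In B614 their mean log2 level was 6.59, beside 4.99 over the AAN mice and 6.65 over the sham mice. Of the podocyte markers 2 of 6 rose, 1 of 5 thick limb markers fell, and 0 of 6 collecting duct markers passed (1 was lower at an unadjusted p under 0.05). The part of these cells in the level of any Notch gene was not tested.

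The rest of the pathway was described through 62 further genes, of which 56 passed the filter on low values. Of the 56, 23 rose and 0 fell by both limits in limma, and 26 did not overlap between the groups. At an unadjusted p under 0.05, 40 were higher and 2 lower, and the share of all genes at this limit was not taken. At an adjusted p of 0.05 or less with no fold limit, 37 of the 56 were higher and 2 lower. Of all 17129 genes tested 9482 were higher and 1027 lower at that limit, so high counts were common. The median log2 fold change was 0.90, beside 0.75 for all genes. The 41.1% that rose and the 46.4% that did not overlap are near the 35.8% and 43.6% of all genes tested. The counts by list are read against the same 35.8%. Of the enzymes that add sugars to Notch 4 of 5 rose and of the proteases 4 of 10. Of the Mind bomb and Neuralized genes 3 of 6 rose, all of the Neuralized family, while *Mib1*, *Mib2* and *Neurl1b* did not pass both limits. Of the RBPJ complex 3 of 8 rose and of the corepressors 2 of 10. Of the regulators of receptor turnover 5 of 10 rose and of the other target genes 2 of 6. *Dll3*, *Dlk1*, *Dner*, *Rbpjl*, *Hes3* and *Hes5* were below the filter. The 12 genes with the smallest adjusted p are named below, and 9 of them stayed past both limits after each rescaling, the exceptions being *Adam17*, *Dtx4* and *Poglut1*.

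*Lfng*, which encodes the Lunatic fringe sugar transferase that changes which ligands a receptor answers to, was 1.91, 0.845, 0.935 and 1.18 FPKM in the sham mice B607, B634, B636 and H249. The AAN mice had 10.4 to 18.2 FPKM. Every AAN mouse was far above every sham mouse, and the log2 fold change was 3.48 ± 0.23 (SE, adjusted p = 3.5e-07). *Mfng*, its relative Manic fringe, rose by 2.09 ± 0.21 on the log2 scale (adjusted p = 6.91e-06), and *Poglut1*, a glucosyltransferase of the receptor, by 1.19 ± 0.19 (adjusted p = 0.000241). *Rfng*, Radical fringe, was 11.0 ± 1.29 FPKM in the sham mice and 7.77 ± 1.91 FPKM in the AAN mice (log2 fold change -0.53, adjusted p = 0.0482), and it was named after its value was seen. It passed both limits after the rescalings, at -1.28 (median of ratios) and -1.14 (quantile normalization).

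In the nucleus, *Rbpj*, the DNA-binding partner of the receptors, was 1.49, 0.609, 0.53 and 0.964 FPKM in the sham mice B607, B634, B636 and H249 and 3.29 to 5.63 FPKM in the AAN mice, with no overlap. Its log2 fold change was 2.34 ± 0.27 (SE, adjusted p = 1.61e-05). *Heyl*, a target gene related to *Hey1*, was 0.959, 0.821, 1.13 and 0.87 FPKM in the same sham mice and 3.77 to 5.91 FPKM in the AAN mice (log2 fold change 2.20 ± 0.17, adjusted p = 8.93e-07). The targets *Hes6* and *Hey2* had log2 fold changes of 0.10 and 0.09 and did not pass. Of the other targets tested, *Hes7* rose by 1.71 (adjusted p = 0.00104), *Nrarp* had 0.68 (adjusted p = 0.00235), short of 2-fold, and *Hes2* had 0.10. These targets were named after their values were seen, and the differences between them were not tested.

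Of the remaining named genes, *Neurl3*, *Neurl1a* and *Neurl2*, of the Neuralized family, rose by 3.55 ± 0.30, 2.49 ± 0.25 and 2.25 ± 0.34 on the log2 scale (SE, adjusted p = 1.74e-06, 6.08e-06 and 0.00015). Whether these genes act on Notch ligands in this tissue was not tested. *Adam17*, a protease that sheds many membrane proteins, rose by 1.57 ± 0.18 (adjusted p = 1.35e-05). *Numbl*, a relative of the Notch inhibitor Numb, rose by 2.29 ± 0.23 (adjusted p = 6.08e-06), while *Numb* itself was 2.99 ± 0.629 FPKM in the sham mice and 3.01 ± 0.435 FPKM in the AAN mice. *Dtx3l* and *Dtx4*, of the Deltex family, rose by 2.12 ± 0.35 and 1.55 ± 0.24 (adjusted p = 0.000281 and 0.000189).

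**Figure D5:**
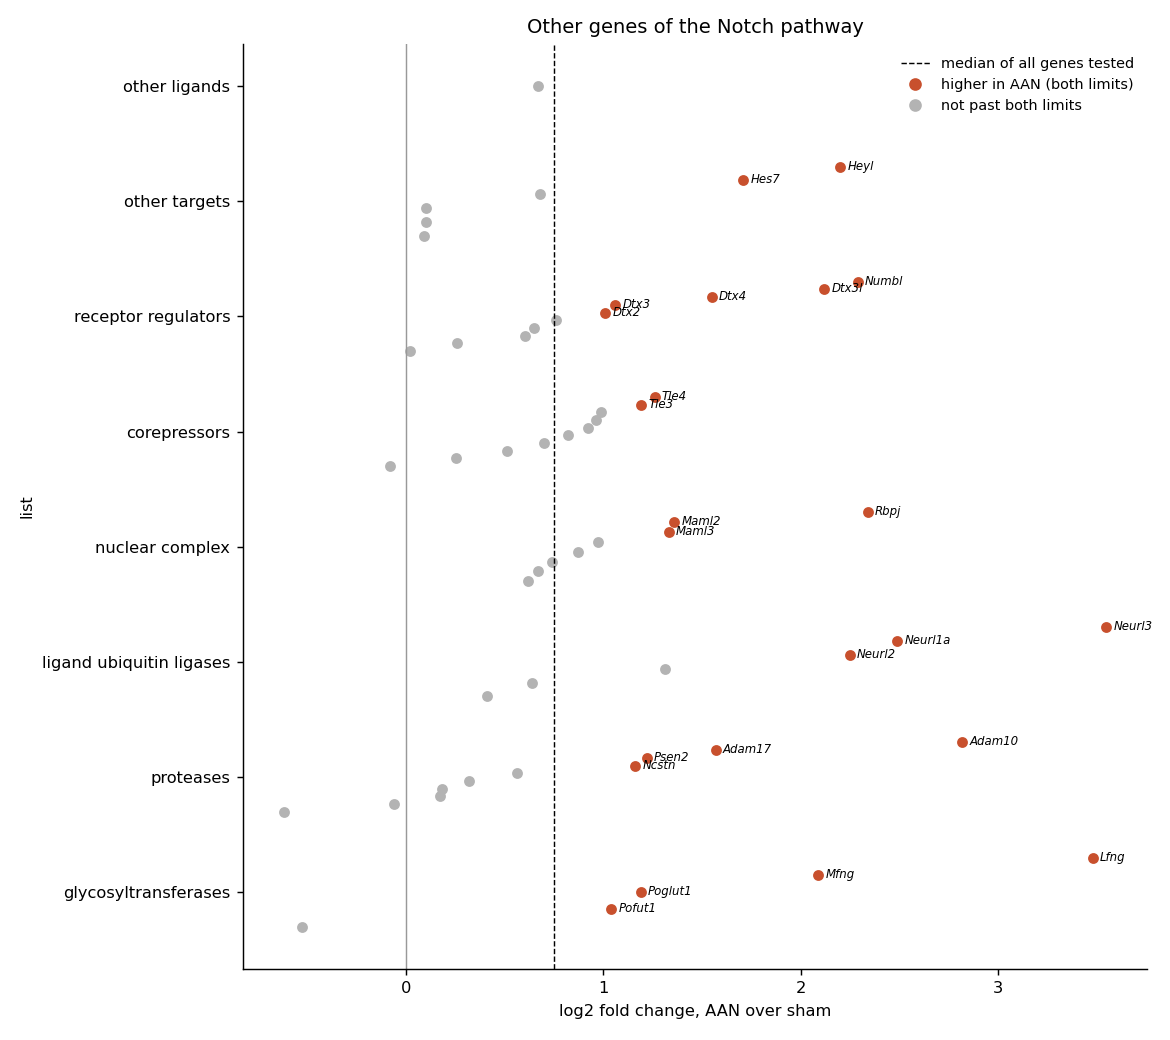
Log2 fold change (AAN over sham) of 56 other Notch pathway genes by list, 1 point per gene. The 23 named points passed both limits, and the dashed line is the median of all genes tested, 0.75. *Neurl3* and *Lfng* lie farthest to the right, at 3.55 and 3.48.

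The letters TGGGAA stood in an upstream stretch of 17 of the 51 other pathway genes with a RefSeq promoter, which is 33.3%, and in 8 of the 19 of these that rose, against 24.1% of all 27025 genes with a promoter in the table. The 5 genes with them on both strands of 1 promoter were *Aak1*, *Hes5*, *Kat2a*, *Lfng* and *Rbpj*, against 1.48% of all genes with a promoter. *Lfng* and *Rbpj* rose, *Aak1* and *Kat2a* did not pass both limits, and *Hes5* was below the filter. The stretches of *Lfng* and *Rbpj* alone are shown, picked by name from genes that rose. They run up to the first annotated exon, with the letters in capitals (TTCCCA is the same core read from the other strand). The stretch of *Lfng* is chr5:140607091-140607319 and that of *Rbpj* is chr5:53590096-53590213, both on the plus strand of GRCm38.p6. In *Lfng* the matches begin 135 and 108 bases before the start. In *Rbpj* the match shown begins 149 bases before the start, and a second, not shown, begins 65 bases before it within an annotated exon. A match is a description of the letters and does not show that a factor binds there.
Lfng: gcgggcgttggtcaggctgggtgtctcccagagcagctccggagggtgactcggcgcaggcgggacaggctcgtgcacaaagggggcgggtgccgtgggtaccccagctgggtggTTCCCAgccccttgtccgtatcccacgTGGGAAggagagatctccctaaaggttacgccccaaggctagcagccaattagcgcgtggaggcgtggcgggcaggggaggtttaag
Rbpj: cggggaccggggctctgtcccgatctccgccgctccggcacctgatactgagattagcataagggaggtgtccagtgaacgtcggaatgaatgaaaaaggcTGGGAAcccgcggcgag

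Some gene models share bases with others in the deposited tables, and strand use is not stated in the sources, so their reads cannot be told apart. *Notch1* overlaps the antisense genes *0610009E02Rik* (up to 1.03 FPKM) and *Gm13568* (up to 0.681 FPKM). *Dll4* overlaps the antisense gene *Gm14207*, which reached 1.40 FPKM. *Dll1*, *Notch3* and *Notch2* overlap *A930024N18Rik* (up to 0.603 FPKM), *Gm17276* (up to 0.417 FPKM) and *Gm42820* (up to 0.341 FPKM). All 6 of these genes were listed at a lower mean level than the Notch gene they overlap in both groups. Of the 12 further pathway genes named by adjusted p, *Rbpj*, *Numbl*, *Adam17*, *Neurl2* and *Dtx3l* also overlap other genes. For *Rbpj* these are *Gm10441* and *Gm40304*, and for *Numbl* *Gm44641*. *Adam17* overlaps *Iah1*, *Neurl2* overlaps *Ctsa* and *Dtx3l* overlaps *Parp9*. The part of their reads in the rises was not tested.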

How the data were processed

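RNA-seq of the kidney cortex of 4 sham and 6 AAN mice was analysed, grouped by the sample labels. The authors built paired-end TruSeq libraries, sequenced them on an Illumina HiSeq Xten, filtered the reads for rRNA, adapters and quality, aligned them to GRCm38 with HISAT2 and deposited 1 FPKM value per gene and mouse from StringTie, with no further scaling between mice named. The annotation release and the use of strand are not given in the sources used here. Their edgeR test needs counts, which the files do not give, so limma was used.

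Symbols and positions came from GENCODE M21 (21650 of 21792 genes matched). The two-sided test was limma's moderated test (version 3.58.1, R 4.3.3; eBayes with the trend and robust options), run on log2(FPKM + 0.1). It took the 17129 genes whose mean reached 0.1 FPKM. The pseudocount understates the changes of low genes. Benjamini-Hochberg adjustment covered all of these genes. Single values per mouse were compared by exact two-sided permutation tests over the 210 splits. The other steps ran in Python 3.11.15 with pandas 2.3.3, numpy 2.4.6, matplotlib 3.10.9 and scipy 1.17.1. The recovery of depth, the limma fit and the exact permutation test were tested on simulated data.

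The depth came from genes with 1 annotated transcript, where 94.5% to 96.8% of values under 0.3 FPKM were whole fragments (tolerance 0.05). In genes with several transcripts 9.7% to 12.0% were, so fragments of the Notch genes were not recovered, and the numbers given for *Hey1* are upper limits from the exonic length that cover counting error only. Upstream stretches were read from the RefSeq promoters (GRCm38.p6).

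All 10 members are named, and of the other pathway genes the 12 with the smallest adjusted p in each direction among those past both limits. For each member the 2 genes most like it within the groups are named, except some that are not reported here. Further names were chosen after their values were seen. Members, gene lists and tests were chosen with earlier results of these data known. The alternatives were other pseudocounts (1 and 0.01), other filters (none, or a mean of 1 FPKM), quantile normalization, the median of ratios, limma without its trend and robust options, no fold limit, the omission of each mouse in turn, and only the mice with B tags. Leaving out B607 and B614 together was added after seeing the data.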

Additional observations from a re-analysis of the deposited data

Results flagged for a closer look

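Within the groups, 22 sets of values were examined for a single mouse far from the rest by Dixon's criterion, and 4 had one, where about 1.1 would be found by chance. *Notch4* was 1.74 FPKM in the AAN mouse B614 and 0.844 to 0.966 FPKM in the other AAN mice. *Jag1* was 4.34 FPKM in the sham mouse B607 and 2.59 to 2.80 FPKM in the other sham mice. The median log2 level of long minus short gene models was -0.84 in B607 (others -1.71 to -1.62) and -0.81 in B614 (others -1.60 to -1.38). Without both mice, 9 of the 10 genes did not overlap between the groups, and *Hey1* did. The share of all genes that did not overlap was not taken for this setting. With fewer mice and these 2 left out, non-overlap is easier to reach for any gene. Over all genes 6839 rose in this setting, beside 6126 with all mice.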

How the results depend on the processing

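Of the 10 Notch genes, 5 rose with the values as deposited, 3 with a pseudocount of 1, 1 after either rescaling (1 by the median of ratios, 1 by quantiles) and 8 with no fold limit. For the other pathway genes the 23 that rose became 12, 11, 10 and 37 under the same settings, and the number that fell went from 0 to 2 (median of ratios), 4 (quantiles) and 2 (no fold limit). Over all genes, 6126 rose and 588 fell. With a pseudocount of 1, 2909 rose, and with a mean of at least 1 FPKM 4025. By the median of ratios 3261 rose and 1801 fell, by quantiles 2232 and 2157, and with no fold limit 9482 and 1027. Log2 fold changes turned sign for *Notch4* (-0.10 median of ratios, -0.64 quantile), *Dll1* (-0.14, -0.46), *Dll4* (-0.09, -0.22), *Jag2* (-0.19, quantile) and *Hey1* (-0.67, quantile). Of the 13 within-mouse pairs 5 passed, 9 with a pseudocount of 1 and 0 among the mice with B tags alone, where 56 splits gave a smallest adjusted p of 0.058. Of the 5 marker comparisons 1 passed, 0 among the B tags and 0 without B607 and B614, and 0 to 1 with 1 mouse left out. With 56 splits, 1 comparison passing alone could not go below an exact adjusted p of 0.0893, so these 2 settings could not keep it. *Notch1* minus endothelium was 1.04 among the B tags and 1.12 without B607 and B614. With 1 mouse left out, *Dll1* minus *Dll4* ranged from -0.18 to 0.04, *Notch4* minus endothelium from -0.01 to 0.35 and *Notch3* minus mural cells from -0.19 to 0.26. With a pseudocount of 1, *Notch4* and *Hey1* minus endothelium were -0.11 and -0.19. *Notch3* minus mural cells was 0.01 with a pseudocount of 0.01 and 0.10 without B607 and B614. The cause of these shifts was not tested. No paired analysis was possible because the labels give the mice of the groups no shared numbers.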

Other observations

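In 3 pathway genes, values split within a group, and the genes were chosen after their values were seen. *Adam10*, which encodes the main protease of ligand-activated Notch, was 9.32, 0.577, 0.575 and 5.72 FPKM in the sham mice B607, B634, B636 and H249 and 11.1 to 19.0 FPKM in the AAN mice, with a log2 fold change of 2.82 ± 0.68 (SE, limma adjusted p = 0.00362). *Neurl1b* was 2.95, 1.02, 0.138 and 1.73 FPKM in the same sham mice and 3.03 to 5.94 FPKM in 5 AAN mice, but 0.0781 FPKM in the AAN mouse B630. *Maml2*, a Mastermind coactivator counted among the genes that rose (log2 fold change 1.36 ± 0.48, SE, limma adjusted p = 0.0284), was 0.216 to 0.28 FPKM in the sham mice, 0.855 to 1.45 FPKM in 5 AAN mice and 0.105 FPKM in the AAN mouse B639. *Aph1c*, which encodes a subunit of γ-secretase and was also named after its value was seen, was 8.08 ± 1.06 FPKM (SD, n = 4) in the sham mice and 5.21 ± 0.616 FPKM (SD, n = 6) in the AAN mice, with no overlap between the groups and a log2 fold change of -0.62 ± 0.15 (SE, limma adjusted p = 0.00385), short of the 2-fold limit. After the median of ratios it was -1.38 and after quantile normalization -1.32, past both limits.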
